A study of Mus musculus with 22 samples.

Results

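Damaged mouse liver treated with nintedanib was compared with healthy mouse liver. All 10 nintedanib-treated model mice (titles 82 to 91) and all 3 control mice (titles 4, 49 and 50) were taken by their labels, which makes 13 of the 22 mice of the study. Gene expression was measured with 1 Affymetrix HT MG-430 array per male C57BL/6J mouse, in 20 mg of frozen liver outside the tumours. The treated mice had received a single injection of N-nitrosodiethylamine (DEN), a carcinogen activated in hepatocytes, then weekly carbon tetrachloride (CCl4), and after fibrosis was established nintedanib at 50 mg/kg for 5 weeks. Control mice had received saline and oil in place of the toxins and, by their titles, vehicle. The other 9 mice carried the same damage and received vehicle for 5 weeks, and their values are set beside the comparison, because treated and control mice differ both in damage and in drug. Toxin injury and nintedanib effect cannot be told apart from the treated and control mice alone.

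CCl4 is metabolised to a toxic radical in hepatocytes around the central vein, and repeated doses activate stellate cells, which lay down collagen. Nintedanib blocks the kinase activity of the receptors for vascular endothelial, platelet-derived and fibroblast growth factors, which act on endothelial cells, stellate cells and fibroblasts. Liver tissue is mostly hepatocytes by mass, and its levels also follow feeding, glucocorticoids, growth hormone and the circadian clock.

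Levels are log2 values of 13392 genes, and each difference below is a log2 difference of group means, nintedanib minus control unless stated, with the standard error of a limma fit of all 22 arrays and a p-value adjusted by Benjamini-Hochberg over all genes. A gene is said to rise or fall only at an adjusted p under 0.05. Array medians lay between 2.83 and 3.09, and nintedanib arrays 89 and 91 stood apart: their correlations to the remaining arrays had medians of 0.950 and 0.948. The number of arrays, above all the 3 controls, limits the precision. Of 28 hepatocyte identity genes looked for, 6 have a value here and none of these passed, so the tissue label was checked on few of its defining genes. Pancreas, adipose and blood markers that could be carried along averaged 3.14 to 3.53 over the nintedanib mice and 3.33 to 3.51 over the controls, with 1 of 16 called (Cela1, an elastase, which fell by 1.61 ± 0.18). In whole tissue, fewer cells of a type and less RNA per cell cannot be told apart.

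Treated mice also differed from controls in clock state. Mice 83 to 91, which are 9 of the 10 nintedanib mice, shared high Dbp and low Arntl with vehicle mice 92 to 94, whereas nintedanib mouse 82 resembled vehicle mice 76 to 81 and the controls. The labels give no batch or time of collection. Values are therefore also given with the run of mice (76 to 82 with the controls, and 83 to 94) as a block. Among nintedanib mice only mouse 82 shares a run with the controls. With the block, mouse 82 is thus the only nintedanib mouse compared with the controls directly. Mice 83 to 91 enter through a shift between runs, assumed equal in all groups. That shift is estimated from vehicle mice 76 to 81 against 92 to 94 and from mouse 82 against mice 83 to 91. The boundary and the placing of the controls rest on these clock genes and were chosen after the data were seen. Title numbers of the controls lie outside those of the model mice, so the damage and any difference in when or how controls were collected cannot be told apart.

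In nintedanib-treated damaged liver 784 genes (5.85% of all) differed from healthy liver, 384 higher (2.87%) and 400 lower (2.99%). Metallothioneins and some collagens, macrophage genes, fetal liver and carcinoma markers and female-biased genes were among those that rose. Some male-biased and pericentral genes were among those that fell. A log2 difference of at least 1 was reached by 210 of these genes, 123 higher and 87 lower, and one of at least 2 by 33. With the run as a block 244 genes passed (1.82%), 142 higher (1.06%) and 102 lower (0.762%), and 203 genes passed in the same direction in both. With the block 781 of the 784 genes kept their sign. Mouse 82, the only nintedanib mouse with the clock state of the controls, lay on the same side of the control mean as the group difference for 771 of the 784. Both counts were made among genes called from these same arrays and controls, and mouse 82 is part of the group mean. Agreement was therefore largely built in and is no independent support. The count was 379 without control 4, 379 without control 50 and 606 without control 49, and of 128 named genes that passed, 89, 90 and 100 passed in those fits. Every nintedanib mouse lay above every control for 331 genes (2.47%) and below every control for 327 (2.44%). The median difference over all genes was -0.00247.

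Vehicle-treated damaged liver, set against the same 3 controls, gave 338 genes (2.52%). That count and the count for nintedanib share their controls. The direct test of nintedanib against vehicle gave 92 genes (0.687%), 55 higher (0.411%) and 37 lower (0.276%), and 6 genes with the run as a block, where 663 had an unadjusted p under 0.05. Those 6 were Mt1, Mt2, Lpin1, Cebpb, Cebpd and Tox, all higher in nintedanib mice, and every other call against vehicle mice given here was lost with the block.

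The largest rises were those of Mt2 and Mt1, which encode metallothioneins, small cysteine-rich proteins that bind zinc and copper and are made in liver in response to metals, glucocorticoids and inflammation. Their promoters are shown because metal-dependent induction of these genes is known to run through metal response elements. The 300 bases run from 250 before the transcription start to 50 after it, 5′ to 3′ on the gene's strand, as given by RefSeq for the GRCm38.p6 build. Capitals mark the core TGCACNC or TGCGCNC on either strand. Mt1 lies at chr8:94178839-94179138 and Mt2 at chr8:94172368-94172667, both on the plus strand.
Mt1: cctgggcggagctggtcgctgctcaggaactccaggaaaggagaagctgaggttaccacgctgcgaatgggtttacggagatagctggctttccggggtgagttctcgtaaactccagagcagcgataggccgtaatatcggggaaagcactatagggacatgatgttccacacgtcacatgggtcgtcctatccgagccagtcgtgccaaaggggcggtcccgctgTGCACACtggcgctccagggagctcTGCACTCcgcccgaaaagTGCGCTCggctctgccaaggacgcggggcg
Mt2: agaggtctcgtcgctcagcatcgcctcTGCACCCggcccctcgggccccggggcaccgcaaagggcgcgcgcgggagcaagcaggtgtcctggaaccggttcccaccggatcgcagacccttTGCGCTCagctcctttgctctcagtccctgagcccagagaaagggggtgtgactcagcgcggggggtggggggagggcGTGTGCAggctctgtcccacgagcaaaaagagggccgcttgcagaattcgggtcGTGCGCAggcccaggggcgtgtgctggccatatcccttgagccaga
The Mt1 window held 3 matches and the Mt2 window 4, none overlapping another. At least 1 match is found in 25.7% of 32851 mouse promoters of this length, at least 3 in 1.97% and at least 4 in 0.517%. A match is a stretch of letters and was not measured as a bound site.

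Mt2 stood at 8.43, 9.13 and 10.17 (lowest, median, highest) in nintedanib mice, against 5.36, 4.68 and 3.81 in controls 4, 49 and 50. The groups were far apart, and the gap between them was wider than the range within either. The rise was 4.74 ± 0.42 (adjusted p = 5.19e-08), and 4.38 ± 0.54 with the run as a block. Mt1 stood at 8.64, 9.26 and 9.81 in nintedanib mice, against 6.03, 5.43 and 5.09 in controls 4, 49 and 50, a rise of 3.72 ± 0.33 (adjusted p = 4.55e-08). Mouse 82 had 9.88 for Mt2 and 9.71 for Mt1, within the range of the other nintedanib mice. Vehicle mice stood at 5.26 to 7.73 for Mt2, below all nintedanib mice and with the lowest vehicle mouse just below control 4, and at 6.22 to 8.28 for Mt1, between the other groups. Both genes were higher in nintedanib than in vehicle mice (2.89 ± 0.30, adjusted p = 7.47e-06, for Mt2 and 2.07 ± 0.23, adjusted p = 1.46e-05, for Mt1).

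Of 9 measured genes of metallothionein and metal handling 4 rose, 1 fell and 4 did not pass, and the same 4 rose with the block. Besides Mt1 and Mt2 these were Hamp2, a homologue of the iron hormone hepcidin, and Slc39a4, a zinc importer. Hamp2 stood at 10.43, 11.13 and 11.97 in nintedanib mice, against 8.86, 8.91 and 9.22 in controls 4, 49 and 50. Its rise of 2.23 ± 0.28 (adjusted p = 1.22e-05) left no overlap between the groups, and vehicle mice reached 9.79 to 11.45. Slc39a4 rose by 0.94 ± 0.18. Slc30a10, a manganese exporter, fell by 2.05 ± 0.39, but mouse 82 had 6.80 against 4.68 to 5.69 in the other nintedanib mice, and with the block the difference was -0.63 ± 0.21 (adjusted p = 0.17).

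**Figure D1:**
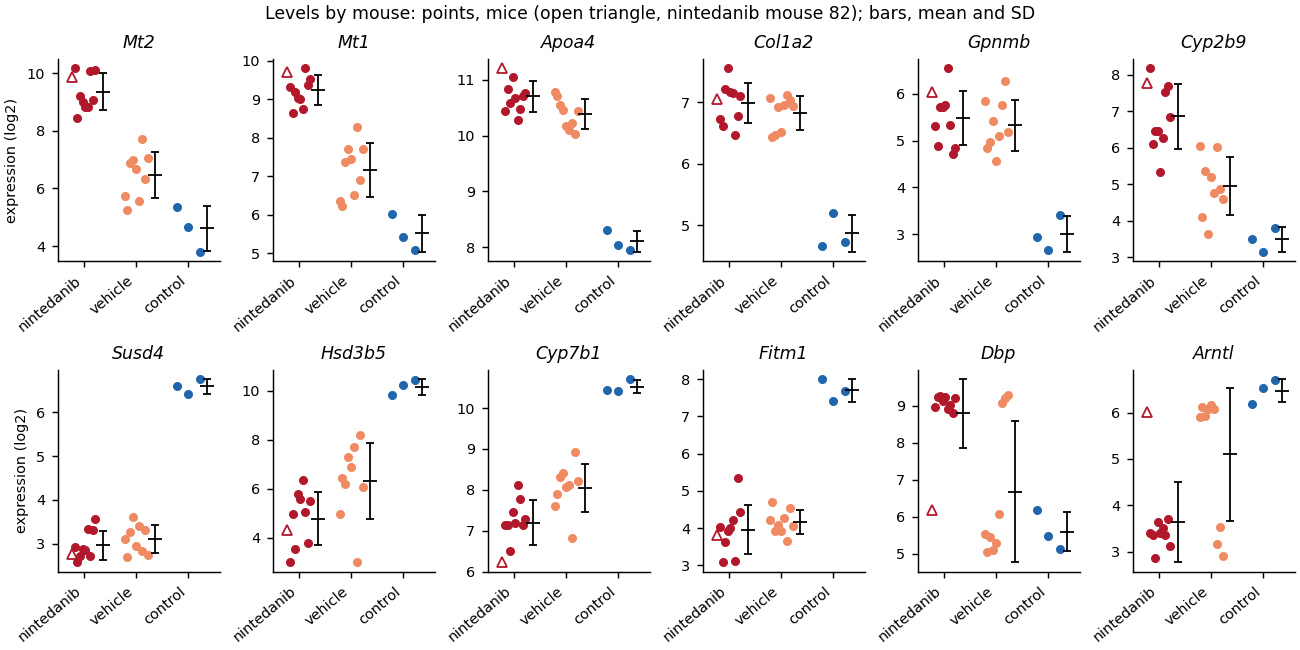
Log2 level (y axis) of 12 genes in each mouse, with nintedanib, vehicle and control mice from left to right, open triangles for nintedanib mouse 82, and bars for the mean and SD of 10, 9 and 3 mice. Mt2 in nintedanib mice (8.43 to 10.17) lies above the controls (3.81 to 5.36), Susd4 (2.58 to 3.56) lies below them (6.41 to 6.76), and in Dbp and Arntl mouse 82 lies with the controls.

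Clock genes made up several of the other large differences. In the circadian clock the activators BMAL1 (encoded by Arntl) and CLOCK bind E-boxes and drive Per, Cry and Ciart genes, whose proteins repress them, while DBP and TEF pass the rhythm on to liver metabolism. Ciart is shown because its promoter holds 3 copies of the E-box CACGTG (capitals), at chr3:95882179-95882478 on the minus strand of GRCm38.p6 (RefSeq).
Ciart: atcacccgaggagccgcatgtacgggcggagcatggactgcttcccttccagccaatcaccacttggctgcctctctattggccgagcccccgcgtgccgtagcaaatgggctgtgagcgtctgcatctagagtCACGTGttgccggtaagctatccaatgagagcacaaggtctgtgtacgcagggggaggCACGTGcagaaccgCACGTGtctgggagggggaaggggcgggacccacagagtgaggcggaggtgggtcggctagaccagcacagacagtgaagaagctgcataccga
An E-box is found in 7.15% of the promoters and at least 3 in 0.09%. Because Ciart was picked for its matches from the clock genes scanned, these shares are no support for a role of the E-boxes. The first Per1 promoter and both Tef promoters held 1 each. The windows of Dbp, Per3 and Usp2 and the other Per1 promoter held none. The Per3 window held 2 copies of the D-box core TTATGTAA or TTACGTAA, which is found in 1.06% of promoters. No D-box core was found in the windows of Dbp, Ciart, Per1, Tef and Usp2.

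Dbp stood at 6.19 in mouse 82 and at 8.79 to 9.26 in the other nintedanib mice, against 6.18, 5.48 and 5.13 in controls 4, 49 and 50. Arntl stood at 6.01 in mouse 82 and at 2.86 to 3.71 in the other nintedanib mice, against 6.20, 6.53 and 6.69 in the controls. In both genes mouse 82 lay with or next to the controls and the other 9 nintedanib mice lay apart. Dbp rose by 3.20 ± 0.81 (adjusted p = 0.0167) and Arntl fell by 2.84 ± 0.64 (adjusted p = 0.00702). With the run as a block the differences were 0.05 ± 0.26 (adjusted p = 0.976) and -0.34 ± 0.19 (adjusted p = 0.53). Among 14 measured core clock genes 3 rose (Per1, Per3, Ciart), 2 fell (Arntl, Clock) and 9 did not pass, and none passed with the block. Of 17 clock output genes 8 rose and 3 fell, with a median difference of 1.54 without the block and 0.05 with it. The runs were drawn from Dbp and Arntl in these same mice. Small block values of clock genes, here and below, were therefore largely built in and are no separate result.

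Ciart, at 3.15 in mouse 82 with a nintedanib median of 5.43 and 2.48, 2.84 and 2.89 in controls 4, 49 and 50, rose by 2.39 ± 0.66, against -0.03 ± 0.33 with the block. Usp2, a ubiquitin protease, rose by 3.64 ± 0.75 (0.76 ± 0.27, adjusted p = 0.195, with the block), and Noct, a rhythmic phosphatase, by 2.26 ± 0.42 (0.88 ± 0.31, adjusted p = 0.181). Tef rose by 1.54 ± 0.39 and Wee1, a mitotic kinase, by 1.89 ± 0.48, and the block values were near 0, at 0.09 ± 0.17 and 0.06 ± 0.20. Per1, which glucocorticoids also induce, differed in this respect: it stood at 6.22, 6.73 and 6.90 in nintedanib mice, against 4.82, 5.14 and 5.33 in controls 4, 49 and 50, with mouse 82 at 6.48. It rose by 1.55 ± 0.26 (adjusted p = 0.00049), and with the block the difference was 0.91 ± 0.27 (adjusted p = 0.0939). Per2 had a difference of 0.9997 ± 0.50 (adjusted p = 0.315) and -0.79 ± 0.30 (adjusted p = 0.235) with the block. Nr1d1, a nuclear receptor of the clock, had -0.51 ± 0.29 (adjusted p = 0.404).

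**Figure D2:**
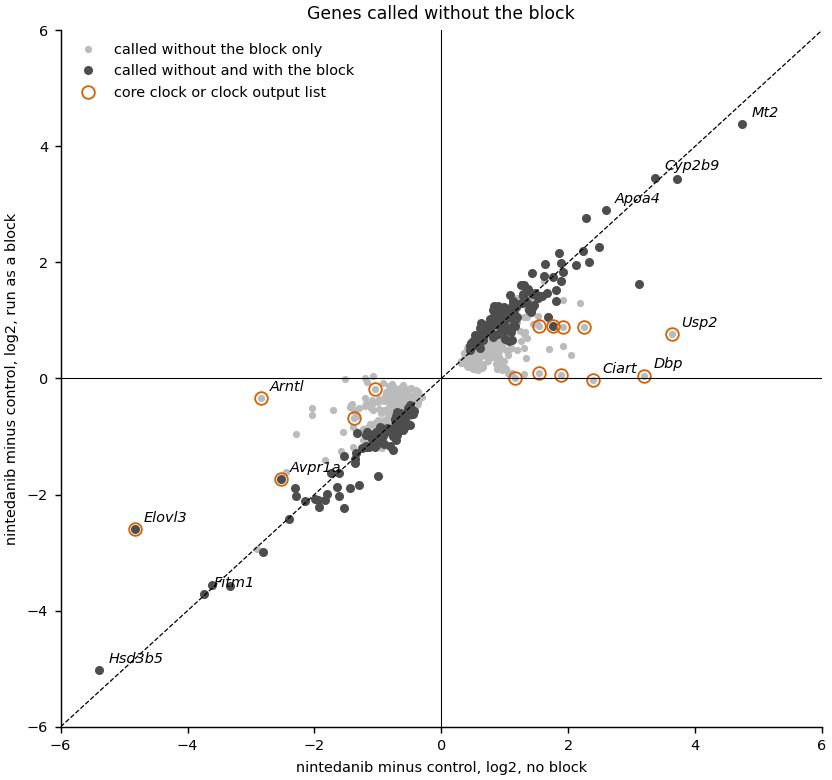
Each point is 1 of the 784 genes called without the block, with the nintedanib minus control log2 difference without the block on the x axis and with the run as a block on the y axis. Dark points are the 203 genes called in both, and open circles are clock genes. Dbp and Ciart lie near 0 on the y axis, while Mt2, Cyp2b9, Hsd3b5 and Fitm1 lie near the diagonal. The runs were drawn from clock genes, so the small block values of clock genes were largely built in.

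Genes of gluconeogenesis, glycogen and the glucocorticoid response that passed were more often higher than lower in treated liver. Of 26 measured members 9 rose, 2 fell and 15 did not pass, with a median difference of 0.52. With the block 4 rose and 1 fell: of the 11 called before, Fkbp5, Mt2 and Dusp1 kept their call, and 2 genes were called in addition. Cdkn1a, a cell cycle inhibitor, was at 0.27 ± 0.41 (adjusted p = 0.836) without the block and at 1.58 ± 0.33 (adjusted p = 0.00911) with it. Ddit4, an inhibitor of mTOR signalling, was at 1.65 ± 0.56 (adjusted p = 0.0881) without the block and at 2.70 ± 0.64 (adjusted p = 0.0248) with it. The mean level of the list was 7.61 to 8.10 in nintedanib mice and 7.11 to 7.50 in controls. Fkbp5, a chaperone induced by glucocorticoids, stood at 5.38, 5.74 and 6.17 in nintedanib mice, against 4.68, 4.57 and 4.68 in controls 4, 49 and 50. The groups did not overlap, and the rise was 1.09 ± 0.14 (adjusted p = 2.48e-05), or 0.88 ± 0.18 with the block. Lpin1, a phosphatidate phosphatase that works with PGC-1α in fasting liver, rose by 1.68 ± 0.27, and Ppargc1a, which encodes PGC-1α, by 0.92 ± 0.21. Their block values were 1.08 ± 0.29 (adjusted p = 0.0557) and 0.72 ± 0.27 (adjusted p = 0.223).

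Foxo1, a transcription factor restrained by insulin, rose by 0.80 ± 0.14 (0.56 ± 0.17, adjusted p = 0.0971, with the block), and Foxo3 by 0.64 ± 0.16 (0.18 ± 0.14, adjusted p = 0.722). Pck1, the enzyme that commits carbon to gluconeogenesis, rose by 0.61 ± 0.14 (0.62 ± 0.18, adjusted p = 0.0819). Ppp1r3c, which targets protein phosphatase to glycogen, fell by 2.45 ± 0.47 (-1.61 ± 0.55, adjusted p = 0.17). Its controls differed widely, with 6.12 in control 4 and 8.08 and 8.18 in controls 49 and 50, so that control 4 lay inside the nintedanib range of 3.62 to 6.27. Dusp1, a phosphatase of stress kinases that glucocorticoids induce, fell by 1.19 ± 0.21 (-1.16 ± 0.27 with the block). Mfsd2a, a transporter of lysophosphatidylcholine that fasting induces in liver, stood at 8.86, 9.24 and 9.76 in nintedanib mice, against 7.33, 6.80 and 6.76 in controls 4, 49 and 50, and rose by 2.32 ± 0.24 (adjusted p = 4.59e-07).

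In the direct comparison with vehicle mice, 8 of the 26 genes of this list were higher in nintedanib mice and 1 was lower. Lpin1 was higher by 1.49 ± 0.19 (adjusted p = 9.98e-05), Foxo1 by 0.67 ± 0.10 (adjusted p = 0.000813), Ppargc1a by 0.83 ± 0.15 (adjusted p = 0.00727) and Fkbp5 by 0.56 ± 0.10 (adjusted p = 0.00757). Ppp1r3c was lower by 1.78 on the log2 scale (a difference of -1.78 ± 0.33, adjusted p = 0.00848). With the run as a block Lpin1 passed at 1.11 ± 0.20 (adjusted p = 0.0258), and the adjusted p was 0.124 for Foxo1, 0.349 for Ppargc1a, 0.441 for Fkbp5 and 0.471 for Ppp1r3c. Treatment and run overlap in this comparison too, and feeding state and hormones were not recorded in the labels.

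Of 15 measured acute phase genes 3 rose and 12 did not pass, while none fell, and the same 3 passed with the block. These were the transcription factors Cebpb and Cebpd and the interleukin-6 receptor Il6ra, so they are regulators and not secreted acute phase proteins. Cebpb stood at 9.73, 9.93 and 10.40 in nintedanib mice, against 9.21, 9.59 and 9.18 in controls 4, 49 and 50, a rise of 0.65 ± 0.12 (adjusted p = 0.00119). Every nintedanib mouse exceeded every control, and vehicle mice lay at 9.08 to 9.47. Cebpd rose by 1.14 ± 0.20 and Il6ra by 0.97 ± 0.16. All 3 were also higher in nintedanib than in vehicle mice, by 0.67 ± 0.08 (adjusted p = 9.98e-05) for Cebpb, 0.79 ± 0.14 (adjusted p = 0.00727) for Cebpd and 0.55 ± 0.11 (adjusted p = 0.0177) for Il6ra. Il6ra lost this call with the block (adjusted p = 0.471).

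Several collagen and other matrix genes were higher in treated damaged liver than in healthy liver. The matrix list has 44 measured members, of which 21 rose and 23 did not pass, while none fell, with a median difference of 0.55. With the block 11 rose, with a median of 0.53. Col1a2, a chain of type I collagen, stood at 6.46, 7.08 and 7.56 in nintedanib mice, against 4.65, 5.20 and 4.73 in controls 4, 49 and 50. The lowest treated mouse lay above the highest control, and the rise was 2.12 ± 0.19 (adjusted p = 5.19e-08). Lum, a proteoglycan that shapes collagen fibrils, rose by 1.91 ± 0.19 (adjusted p = 2.9e-07), and Dpt, dermatopontin, by 1.67 ± 0.26. Col3a1 of type III collagen rose by 1.46 ± 0.18 and Col5a2 of type V collagen by 1.13 ± 0.17. Col1a1, the other chain of type I collagen, did not pass: it stood at 2.09, 3.51 and 4.20 in nintedanib mice, against 2.83, 2.73 and 2.37 in controls 4, 49 and 50, a difference of 0.77 ± 0.29 (adjusted p = 0.133). Each control lay below the median of its array, near background, where the array method compresses differences. The lowest treated mouse was mouse 89, whose array stood apart, and without arrays 89 and 91 the difference was 0.93 (adjusted p = 0.0164). Col5a3, another chain of type V collagen, differed by -0.36 ± 0.15 (adjusted p = 0.181).

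Sparc, a collagen-binding protein, rose by 0.72 ± 0.13, and Postn, periostin, by 0.94 ± 0.17. Ccdc80, a matrix protein outside the list, had levels of 6.39 to 6.99 in nintedanib mice and 5.12 to 5.39 in controls and rose by 1.42 ± 0.14 (adjusted p = 1.41e-07). The mean level of the matrix list was 4.60 to 4.98 in nintedanib mice, 4.55 to 4.91 in vehicle mice and 4.16 to 4.28 in controls. In vehicle mice 16 of the 44 genes rose against the same controls, with a median of 0.45. None of the 44 passed in nintedanib against vehicle, where Col1a2 differed by 0.16 ± 0.13 (adjusted p = 0.76), Lum by 0.37 ± 0.13 (adjusted p = 0.245) and Col3a1 by 0.09 ± 0.12 (adjusted p = 0.876).

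Among 29 matrix remodelling genes 4 rose and none fell. Mmp2, a gelatinase, rose by 1.59 ± 0.22, Mmp12, the macrophage elastase, by 1.92 ± 0.38 (1.35 ± 0.45, adjusted p = 0.159, with the block) and Timp3, a protease inhibitor, by 0.56 ± 0.12 (0.46 ± 0.15, adjusted p = 0.15). Of 24 stellate cell and myofibroblast genes 7 rose and none fell, and 2 rose with the block. Among the 17 that did not pass were Acta2, at 0.15 (adjusted p = 0.757), Tagln, at 0.10 (adjusted p = 0.89), and Des, at 0.07 (adjusted p = 0.922). Vim, an intermediate filament of mesenchymal cells, rose by 0.98 ± 0.19, Cygb, a globin of stellate cells, by 0.82 ± 0.17 (0.67 ± 0.21, adjusted p = 0.122, with the block), and Mgp, a calcification inhibitor, by 1.003 ± 0.24 (0.74 ± 0.31, adjusted p = 0.309). Ccn2, a connective tissue growth factor induced by TGF-β, rose by 0.98 ± 0.26 (1.11 ± 0.34, adjusted p = 0.113, with the block). The list's mean level was 4.35 to 4.69 in nintedanib mice and 4.14 to 4.23 in controls, and its part in the matrix values was not tested. Serpine2, a protease inhibitor, fell by 1.94 ± 0.25 (adjusted p = 1.89e-05).

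**Figure D3:**
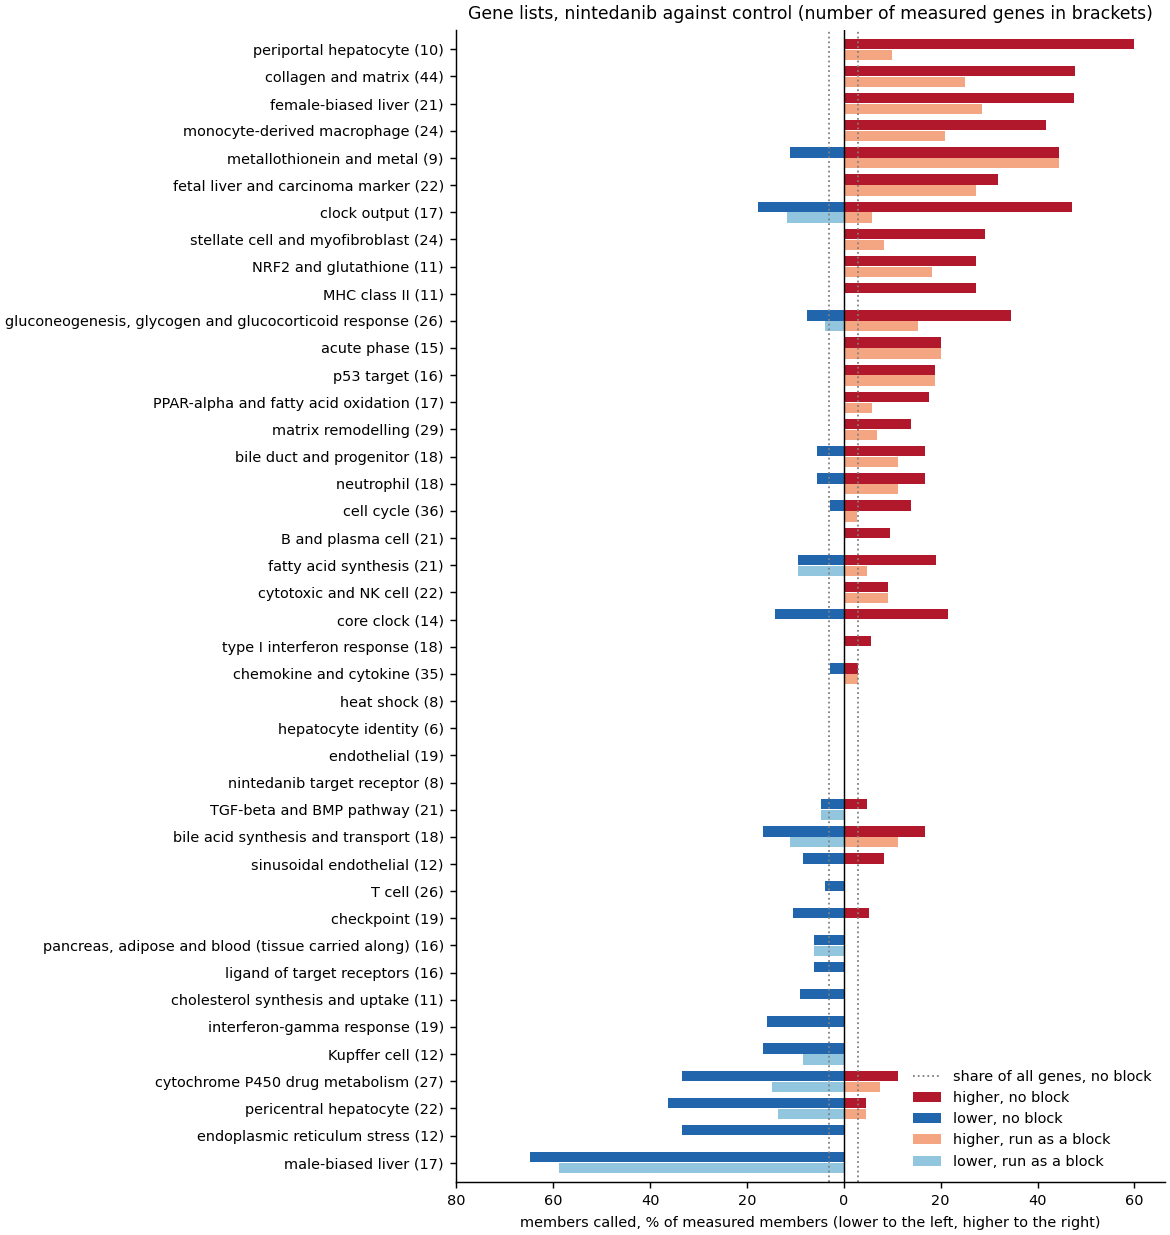
Share of measured members of each gene list called in nintedanib against control (x axis, %, lower to the left and higher to the right), without the block (dark bars) and with the run as a block (pale bars). Dotted lines mark the shares of all genes without the block, 2.99% lower and 2.87% higher, and the collagen list reaches 21 of 44 higher while the male-biased list reaches 11 of 17 lower.

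Several genes of a monocyte-derived macrophage list were higher in treated liver, and more were not called. Of 24 measured macrophage genes 10 rose and none fell, with a median difference of 0.44, and 5 rose with the block, 4 of them among these 10. Among the 14 that did not pass without the block were Ccr2, at 0.37 (adjusted p = 0.24), Lyz2, at 0.57 (adjusted p = 0.35), and Cd68, at 0.30 (adjusted p = 0.54). Gpnmb, a glycoprotein of lipid-laden macrophages, stood at 4.71, 5.52 and 6.55 in nintedanib mice, against 2.95, 2.65 and 3.40 in controls 4, 49 and 50, and rose by 2.49 ± 0.32 (adjusted p = 2e-05). The groups did not overlap, and vehicle mice covered almost the same range, 4.55 to 6.27. Lgals3, galectin-3, rose by 1.19 ± 0.18, Laptm5, a lysosomal protein of blood cells, by 0.63 ± 0.14, and Trem2, a lipid receptor of macrophages, by 1.09 ± 0.28 (0.76 ± 0.36, adjusted p = 0.409, with the block). The list's mean level was 5.99 to 6.62 in nintedanib mice and 5.41 to 5.70 in controls. Of 12 Kupffer cell genes 2 fell and none rose: the scavenger receptor Cd163 by 0.80 ± 0.20 (-0.42 ± 0.22, adjusted p = 0.501, with the block) and the BMP target Id3 by 1.09 ± 0.17 (-1.04 ± 0.22 with the block). Marco, another scavenger receptor, differed by 1.02 ± 0.50 (adjusted p = 0.301).

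The neutrophil list had 3 of 18 genes higher and 1 lower. S100a8, a subunit of calprotectin, stood at 5.32, 5.82 and 6.65 in nintedanib mice, against 4.73, 4.32 and 3.77 in controls 4, 49 and 50, a rise of 1.63 ± 0.23 (adjusted p = 7.37e-05), and its partner S100a9 rose by 1.09 ± 0.30. Il1b, the inflammatory cytokine on the same list, fell by 0.91 ± 0.27 (-0.54 ± 0.33, adjusted p = 0.588, with the block). Of 11 MHC class II genes 3 rose, by 0.54 ± 0.16 for H2-Aa, 0.60 ± 0.17 for H2-Ab1 and 0.60 ± 0.14 for H2-Eb1, and none passed with the block. The invariant chain Cd74 differed by 0.42 ± 0.14 (adjusted p = 0.0812), against 0.67 ± 0.14 (adjusted p = 0.00701) in vehicle mice.

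Lymphocyte lists were called at a share near that of all genes (5.85%). Of 22 cytotoxic and NK cell genes 2 rose, the chemokine Ccl5 by 1.43 ± 0.34 and the NK receptor subunit Klrd1 by 0.80 ± 0.20, and both passed with the block. Of 26 T cell genes 1 passed, the adaptor Skap1, which fell by 0.46 ± 0.11 at levels of 2.11 to 2.69 in nintedanib mice and 2.77 to 2.90 in controls (-0.42 ± 0.15, adjusted p = 0.196, with the block). Of 21 B and plasma cell genes 2 rose, the adaptor Blnk by 0.95 ± 0.25 and the coactivator Pou2af1 by 0.68 ± 0.15, and none with the block. Tox, a transcription factor of exhausted T cells, rose by 0.44 ± 0.12 (0.36 ± 0.16, adjusted p = 0.358, with the block) and was higher than in vehicle mice by 0.61 ± 0.08 (adjusted p = 0.000361). Lag3, an inhibitory receptor, fell by 0.45 ± 0.13 (-0.32 ± 0.16, adjusted p = 0.47). Of 19 interferon-γ response genes 3 fell and none rose, with a median of -0.14. Those that fell include the GTPase Irgm1, by 0.52 ± 0.16, and the tryptophan-degrading enzyme Ido1, by 0.47 ± 0.11. None of the 3 passed with the block, and the list's mean level was 4.97 to 5.20 in nintedanib mice and 5.21 to 5.36 in controls.

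None of the 8 receptors whose kinases nintedanib blocks passed against healthy liver, with or without the block, and their median difference was 0.11. For the PDGF receptors of stellate cells the differences were 0.44 ± 0.15 for Pdgfra (adjusted p = 0.101) and 0.46 ± 0.17 for Pdgfrb (adjusted p = 0.132). For the VEGF receptors they were 0.03 ± 0.12 for Kdr (adjusted p = 0.948), -0.34 ± 0.13 for Flt1 (adjusted p = 0.166) and 0.11 ± 0.13 for Flt4 (adjusted p = 0.769). For the FGF receptors they were 0.04 ± 0.12 for Fgfr1, 0.11 ± 0.15 for Fgfr2 and 0.12 ± 0.16 for Fgfr3, with adjusted p-values of 0.92, 0.798 and 0.79. Kdr, the main VEGF receptor of endothelium, stood at 6.50 to 6.99 in nintedanib mice, 6.69 to 7.22 in vehicle mice and 6.43 to 6.75 in controls, so nintedanib mice and controls overlapped. The kinase activity of these receptors is not visible in RNA levels. Of 16 ligands 1 passed, Fgf1, a fibroblast growth factor, which fell by 0.69 ± 0.17 (-0.70 ± 0.22, adjusted p = 0.115, with the block).

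No gene of the 19 on the endothelial list passed against healthy liver, and the median difference was 0.17, beside 0.31 for vehicle mice against the same controls. Pecam1, an adhesion molecule of endothelium, differed by 0.29 ± 0.21 (adjusted p = 0.546) in nintedanib mice and by 0.79 ± 0.21 (adjusted p = 0.0438) in vehicle mice, and the direct difference, -0.50 ± 0.15, did not pass (adjusted p = 0.119). Cldn5, a tight junction protein of vessels, stood at 4.55 to 5.50 in nintedanib mice, 5.11 to 5.90 in vehicle mice and 5.11 to 5.67 in controls. It was lower in nintedanib than in vehicle mice (-0.61 ± 0.14, adjusted p = 0.032) and did not pass against controls (-0.61 ± 0.20, adjusted p = 0.0694), and the call against vehicle was lost with the block (adjusted p = 0.568). Among 12 sinusoidal endothelial genes Lyve1, a hyaluronan receptor, rose by 0.74 ± 0.21 and Rspo3, a Wnt enhancer made around the central vein, fell by 0.66 ± 0.17, and neither passed with the block.

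Genes with higher expression in male liver were lower in treated mice, although all mice were male. In rodents this bias follows the pulsatile secretion of growth hormone in males. Of 17 measured male-biased genes 11 fell, none rose and 6 did not pass, with a median difference of -1.52. With the block 10 fell, with a median of -1.23. The list's mean level was 6.11 to 6.98 in nintedanib mice, 6.09 to 7.40 in vehicle mice and 8.24 to 8.53 in controls. Hsd3b5, a steroid-metabolising enzyme of male liver, stood at 2.98, 4.99 and 6.35 in nintedanib mice, against 9.82, 10.22 and 10.46 in controls 4, 49 and 50. It had the largest fall of all called genes, 5.39 on the log2 scale (-5.39 ± 0.73, adjusted p = 3.52e-05), with a wide spread among treated mice and no overlap with controls.

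Susd4, a complement regulator, stood at 2.58, 2.86 and 3.56 in nintedanib mice, against 6.59, 6.41 and 6.76 in controls 4, 49 and 50. Its fall of 3.62 ± 0.19 had the smallest p-value of the comparison (adjusted p = 4.06e-12), and with the block the difference was -3.56 ± 0.25. Cyp7b1, an oxysterol hydroxylase, fell by 3.33 ± 0.32 (adjusted p = 1.51e-07), with mouse 82 lowest of all treated mice at 6.22. Elovl3, a fatty acid elongase that is both male-biased and rhythmic, fell by 4.83 ± 0.75, against -2.59 ± 0.66 (adjusted p = 0.0386) with the block. Slco1a1, an organic anion transporter, fell by 2.29 ± 0.31 and Serpina12, vaspin, fell by 2.30 ± 0.40. The fatty acid hydroxylase Cyp4a12a fell by 2.14 ± 0.37, and Cyp2u1, of a related P450 family, fell by 1.74 ± 0.23. Slco1a1 and Elovl3 were also lower than in vehicle mice, with differences of -1.29 ± 0.22 (adjusted p = 0.00691) and -2.75 ± 0.53 (adjusted p = 0.0112), or -1.12 ± 0.27 (adjusted p = 0.255) and -1.35 ± 0.44 (adjusted p = 0.579) with the block. Against vehicle mice Hsd3b5 at -1.53 ± 0.51 (adjusted p = 0.198) and Susd4 at -0.14 ± 0.13 (adjusted p = 0.807) did not pass.

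Of 21 measured female-biased genes 10 rose and 11 did not pass, while none fell, with a median of 0.66, and 6 rose with the block. Cyp2b9, a cytochrome P450 of female liver, stood at 5.32, 6.65 and 8.18 in nintedanib mice, against 3.50, 3.15 and 3.81 in controls 4, 49 and 50, and rose by 3.38 ± 0.47 (adjusted p = 5.49e-05). The groups did not overlap, mouse 82 stood high at 7.76, and the block left the value at 3.46 ± 0.62. Vehicle mice, at 3.63 to 6.04, overlapped both groups, and the direct difference was 1.91 ± 0.33 (adjusted p = 0.00727), or 1.97 ± 0.41 (adjusted p = 0.124) with the block. Acot3, an acyl-CoA thioesterase, rose by 3.12 ± 0.50 (1.63 ± 0.43, adjusted p = 0.049, with the block). Abcd2, a peroxisomal transporter of fatty acids, rose by 1.41 ± 0.20 and Cyp39a1, an oxysterol hydroxylase, by 1.30 ± 0.19.

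**Figure D4:**
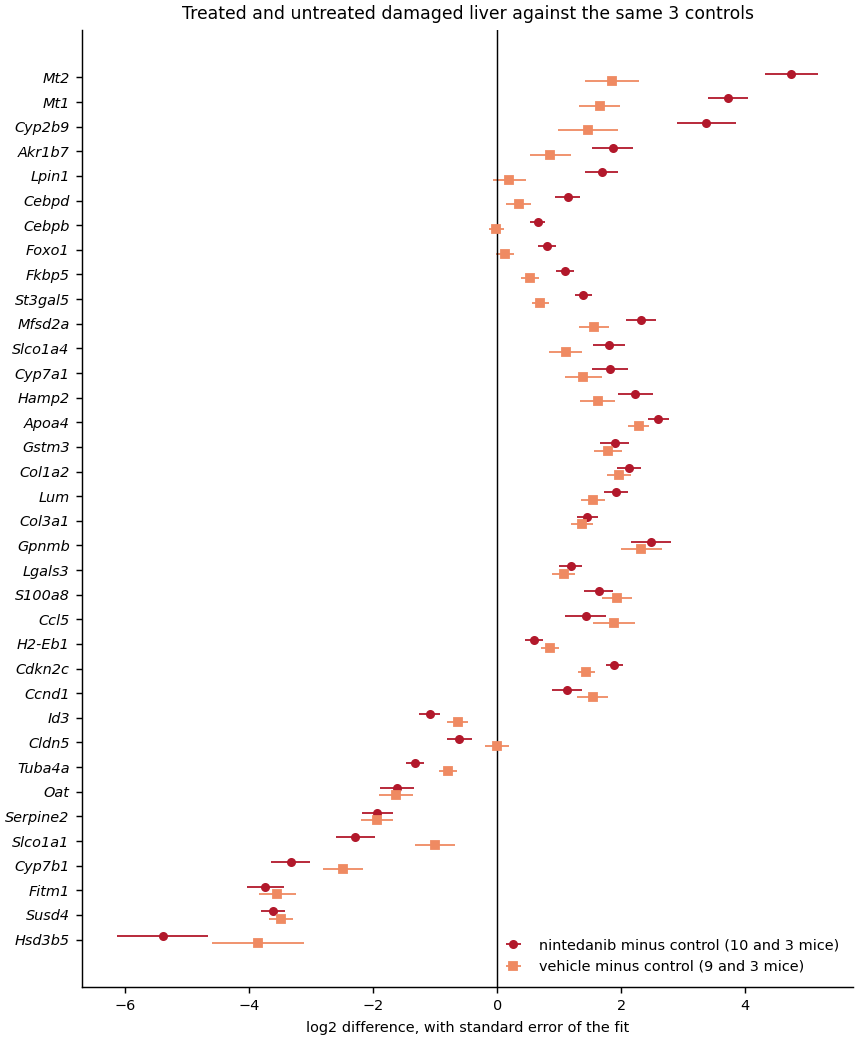
Log2 differences (x axis) with the standard error of the fit for 36 genes, nintedanib minus control (circles, upper) and vehicle minus control (squares, lower), both against the same 3 controls. The pairs lie apart for Mt2 (4.74 and 1.85), Mt1 (3.72 and 1.65) and Lpin1 (1.68 and 0.20) and close together for Susd4 (-3.62 and -3.48), Fitm1 (-3.74 and -3.55) and Gpnmb (2.49 and 2.33).

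Hepatocyte genes of both liver zones changed. Hepatocytes near the portal vein make glucose and urea, and those near the central vein detoxify drugs and make glutamine. Of 10 measured periportal genes 6 rose and none fell, with a median of 0.71, and 1 rose with the block. Apoa4, an apolipoprotein, stood at 10.27, 10.69 and 11.21 in nintedanib mice, against 8.31, 8.05 and 7.95 in controls 4, 49 and 50, and rose by 2.60 ± 0.17 (adjusted p = 2.59e-10). Each treated mouse lay well above each control, and so did the vehicle mice, at 10.02 to 10.78. Hsd17b6, a steroid dehydrogenase, rose by 1.34 ± 0.33 and Aldh1b1, a mitochondrial aldehyde dehydrogenase, by 1.03 ± 0.26, and neither passed with the block.

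Of 22 pericentral genes 8 fell and 1 rose, and 3 fell and 1 rose with the block. Glul, glutamine synthetase of the innermost cell layer, stood at 9.22, 9.72 and 9.85 in nintedanib mice, against 10.64, 10.60 and 10.45 in controls 4, 49 and 50. All treated mice were below all controls (-0.88 ± 0.19, adjusted p = 0.00459), and with the block the difference was -0.92 ± 0.25 (adjusted p = 0.0529). Oat, ornithine aminotransferase, fell by 1.61 ± 0.27, and Slc1a2, a glutamate transporter, by 1.30 ± 0.27, and both were larger in size with the block, at -2.02 ± 0.33 and -1.84 ± 0.31. Avpr1a, a vasopressin receptor, fell by 2.53 ± 0.31 (-1.73 ± 0.32 with the block). It is also on the clock output list, and mouse 82, at 5.03, lay above the other treated mice, at 3.44 to 4.54. None of these genes differed from vehicle mice at the threshold.

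Of 27 cytochrome P450 and drug metabolism genes 9 fell and 3 rose. Cyp2c37, a pericentral P450, fell by 1.03 ± 0.20 (-0.86 ± 0.26, adjusted p = 0.103, with the block). Por, the reductase that supplies P450 enzymes with electrons, stood at 8.002, 9.05 and 9.40 in nintedanib mice, against 7.51, 6.91 and 7.29 in controls 4, 49 and 50, and rose by 1.76 ± 0.26. Alas1, which starts haem synthesis, rose by 1.91 ± 0.38. Both are on the clock output list, mouse 82 was the lowest treated mouse for each, and the block values were 0.91 ± 0.19 (adjusted p = 0.0104) for Por and 0.89 ± 0.37 (adjusted p = 0.304) for Alas1.

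In bile acid synthesis 3 of 18 genes rose and 3 fell. Cyp7a1, the rate-limiting enzyme of the classical pathway, stood at 8.41, 9.19 and 9.62 in nintedanib mice, against 7.83, 6.99 and 7.06 in controls 4, 49 and 50, and rose by 1.82 ± 0.29 (adjusted p = 0.000228). No treated mouse reached down to a control. Cyp8b1, which makes cholic acid, fell by 1.35 ± 0.35 (-0.90 ± 0.44, adjusted p = 0.438, with the block). Slco1a4, an organic anion transporter, rose by 1.80 ± 0.26, against the fall of Slco1a1 and Cyp7b1 already given.

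Lipid genes moved both ways. Of 21 fatty acid and lipid synthesis genes 4 rose and 2 fell. Fitm1, which promotes lipid droplets, stood at 3.08, 3.96 and 5.35 in nintedanib mice, against 8.01, 7.41 and 7.67 in controls 4, 49 and 50, and fell by 3.74 ± 0.30 (adjusted p = 1.09e-08). The groups did not overlap, and vehicle mice, at 3.64 to 4.69, lay in the nintedanib range. Lpin2, a relative of Lpin1, rose by 1.004 ± 0.15, Elovl6, a fatty acid elongase, by 1.15 ± 0.22 (0.96 ± 0.29, adjusted p = 0.094, with the block), and the fatty acid receptor Cd36 by 0.72 ± 0.20 (0.80 ± 0.26, adjusted p = 0.132). Of 11 cholesterol genes 1 passed: Insig2, which retains the sterol sensor in the endoplasmic reticulum, fell by 1.21 ± 0.35, and with the block it was at 0.01 ± 0.21 (adjusted p = 0.996). St3gal5, which makes the ganglioside GM3, had levels of 8.06 to 8.68 in nintedanib mice and 6.77 to 7.27 in controls and rose by 1.39 ± 0.14 (adjusted p = 2.9e-07). It was also higher than in vehicle mice, by 0.69 ± 0.10 (adjusted p = 0.000368), or 0.55 ± 0.11 (adjusted p = 0.0829) with the block.

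Some markers of fetal liver and of hepatocellular carcinoma were higher in this tissue, which was taken outside the tumours. Of 22 measured markers 7 rose and 15 did not pass, while none fell, with a median of 0.97, and 6 rose with the block. Among the 15 were Afp, at 0.99 (adjusted p = 0.492), and Igf2, at 0.07 (adjusted p = 0.863). H19, at 1.98 (adjusted p = 0.072), and Gpc3, at 1.22 (adjusted p = 0.086), did not pass either. Ly6d, a surface protein of lymphoid and epithelial progenitors, stood at 3.95, 5.26 and 6.90 in nintedanib mice, against 2.68, 2.47 and 3.98 in controls 4, 49 and 50, and rose by 2.28 ± 0.40 (adjusted p = 0.000755). The lowest treated mouse fell just short of control 50, and mouse 82 was the highest. Golm1, a Golgi protein used as a serum marker of carcinoma, rose by 1.04 ± 0.14, Prom1, which encodes the progenitor antigen CD133, by 1.54 ± 0.23, Cd24a by 1.27 ± 0.20 and Spink1, a trypsin inhibitor, by 1.48 ± 0.26. Akr1b7, an aldo-keto reductase, rose by 1.86 ± 0.33 and was higher than in vehicle mice by 1.004 ± 0.23 (adjusted p = 0.038), or 1.19 ± 0.28 (adjusted p = 0.241) with the block. The list's mean level was 4.03 to 4.84 in nintedanib mice, 3.72 to 4.61 in vehicle mice and 3.26 to 3.48 in controls.

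Of 36 cell cycle genes 5 rose and 1 fell, and 1 rose with the block. Cdk1, the mitotic kinase, rose by 1.53 ± 0.29 (1.08 ± 0.35, adjusted p = 0.139, with the block), Ccnd1, cyclin D1, by 1.13 ± 0.24 (1.12 ± 0.32, adjusted p = 0.0714) and the centromere histone Cenpa by 0.89 ± 0.21 (1.25 ± 0.25, adjusted p = 0.00634). Ccnf, cyclin F, fell by 1.20 ± 0.29 (-0.48 ± 0.29, adjusted p = 0.591). Cdkn2c, an inhibitor of CDK4 and CDK6, stood at 6.15, 6.38 and 6.52 in nintedanib mice, against 4.36, 4.79 and 4.19 in controls 4, 49 and 50, and rose by 1.89 ± 0.14 (adjusted p = 2.35e-09). Treated mice lay in a narrow range above the controls, and the direct difference from vehicle mice was 0.45 ± 0.10 (adjusted p = 0.0227), or 0.32 ± 0.11 (adjusted p = 0.722) with the block. Of 16 p53 targets 3 rose: the apoptosis effector Bax by 0.85 ± 0.16, Phlda3, an inhibitor of AKT, by 1.01 ± 0.22, and the death receptor Eda2r by 0.92 ± 0.24 (0.88 ± 0.32, adjusted p = 0.201, with the block). With the block Bax, Phlda3 and Cdkn1a passed, and for Cdkn1a, a main p53 target, the call was made with the block and not without it. Mouse 82 had 6.95 for Cdkn1a and the other nintedanib mice 3.99 to 5.44, against 4.56 to 5.03 in controls. These other mice overlapped the controls, so the Cdkn1a call with the block rests on mouse 82 and on the shift between runs. In the NRF2 and glutathione list 3 of 11 rose, among them the glutathione transferase Gstm3 by 1.89 ± 0.23 (adjusted p = 7.77e-06) and the carbonyl reductase Cbr3 by 1.31 ± 0.18.

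Of 12 endoplasmic reticulum stress genes 4 fell and none rose, with a median of -0.58, and none passed with the block, where the median was -0.28. Hspa5, the chaperone BiP, fell by 0.65 ± 0.18, Hyou1, its nucleotide exchange factor, by 0.90 ± 0.23, Manf, a secreted stress factor, by 0.87 ± 0.25, and Syvn1, a ubiquitin ligase of misfolded proteins, by 0.82 ± 0.17. Mouse 82 was the highest treated mouse for all 4, with 10.08 for Hspa5 and 9.01 for Manf. The other treated mice shared the clock state with high Dbp and low Arntl, whose part in these falls was not tested. Heat shock genes, 8 in number, did not pass.

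A pair of tubulin genes fell. Tuba4a stood at 8.75, 8.95 and 9.19 in nintedanib mice, against 10.25, 10.28 and 10.34 in controls 4, 49 and 50, and fell by 1.32 ± 0.15 (adjusted p = 1.7e-06). The difference was -0.95 ± 0.15 with the block and -0.53 ± 0.10 against vehicle mice (adjusted p = 0.0112), where the block gave -0.29 ± 0.10 (adjusted p = 0.629). Tubb2a fell by 2.28 ± 0.43, but mouse 82, at 9.07, stood above all other treated mice, and the block value was -0.96 ± 0.35 (adjusted p = 0.216). Other genes with small p-values and no list were Nxpe2, which fell by 1.99 ± 0.16 (adjusted p = 1.18e-08), and Sucnr1, the succinate receptor, which fell by 1.94 ± 0.21 (adjusted p = 1.62e-06). Both kept their size with the block, at -2.08 ± 0.21 and -2.10 ± 0.27.

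**Figure D5:**
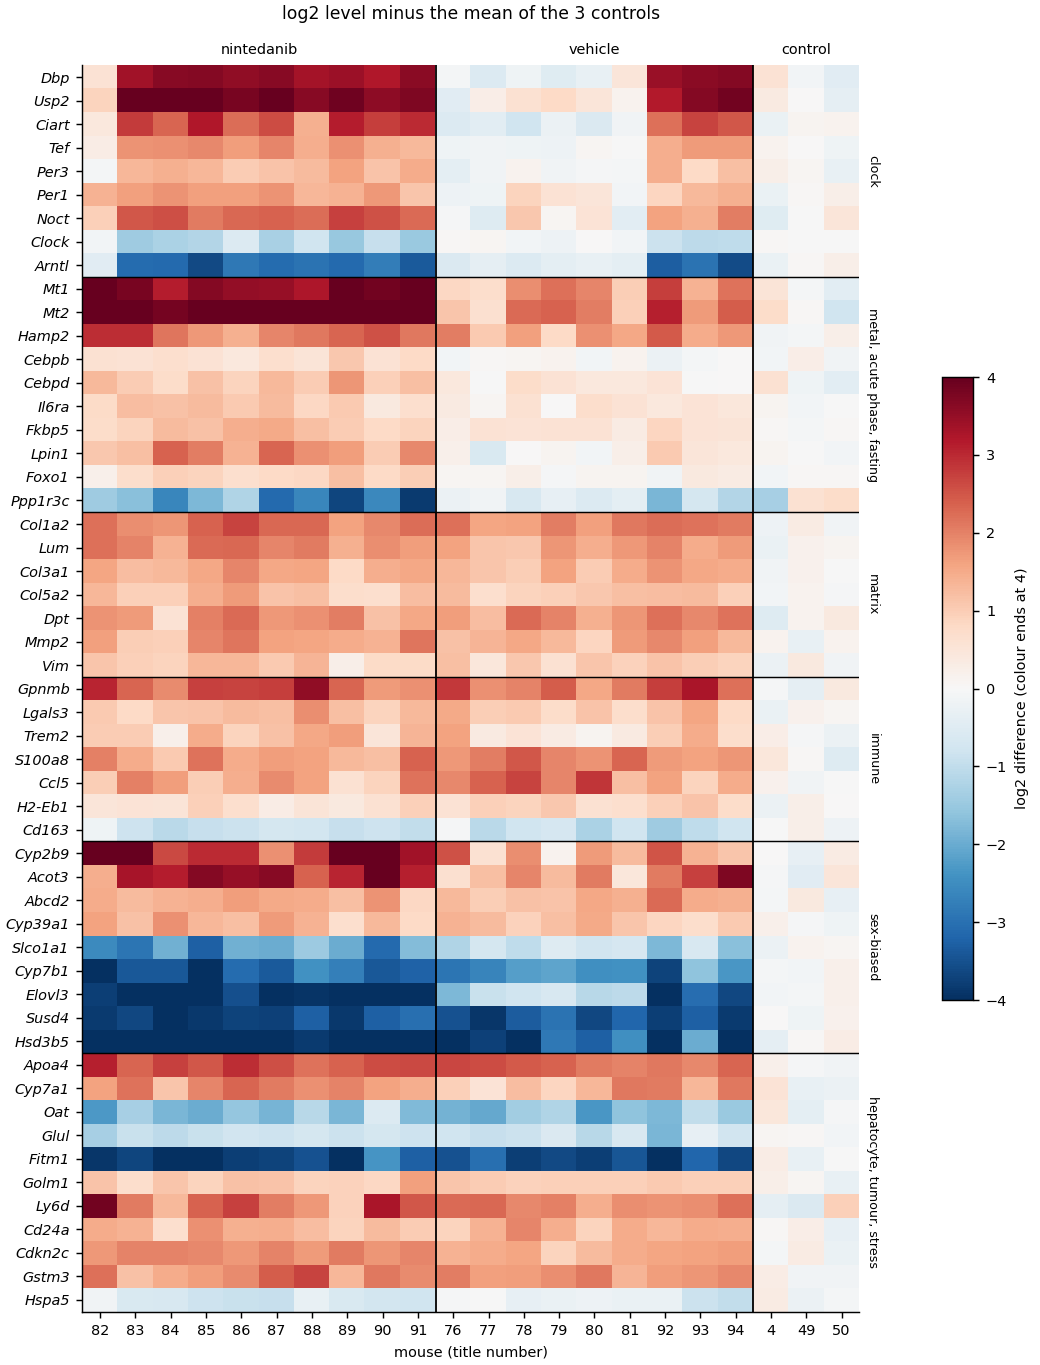
Log2 level of each gene minus the mean of the 3 controls (colour, ending at 4) in each mouse, with nintedanib, vehicle and control mice from left to right and genes in groups from top to bottom. The clock genes other than Per1 split mouse 82 from mice 83 to 91 and vehicle mice 92 to 94 from 76 to 81. Mt1, Mt2, Susd4, Fitm1 and the matrix genes each have the same sign in all 10 nintedanib mice.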

How the data were processed

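The authors deposited log2 expression values, 1 per Entrez gene, made with the robust multiarray average (RMA) on custom probe sets, per the series' design text; software versions are not given in the sources used here. RMA normalizes quantiles, which hides a shift common to all genes, and it compresses differences near background. The table holds 13392 genes, of which 13242 were named by Entrez ID from RefSeq (GRCm38.p6) and 150 were not. Many abundant liver genes have no value in it and were not analysed here, among them all 63 oxidative phosphorylation genes looked for. No filter was applied and no array was left out.

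All 22 arrays were fitted in limma (version 3.58.1, R 4.3.3; lmFit and eBayes) with a mean for each of 3 groups and 19 residual degrees of freedom. Tests were 2-sided, p-values were adjusted over all genes (Benjamini-Hochberg), and the threshold was 0.05. The procedure was also run on simulated data, in which the shift between runs was equal in all groups. That assumption was therefore not tested. Mice are separate animals by their titles. The members, gene lists, run block and tests were chosen with earlier results of these data known, so no list is independent evidence of its direction, and lists are described by counts and medians without a test.

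Genes named are a subset, picked after the values were seen, of those under a rule: the 12 largest rises and 12 largest falls called, the 10 smallest p-values per direction called with and without the block, up to 4 members of each list by p, the receptors and core clock genes, and up to 10 per direction called also against vehicle. Akr1b7, Alas1, Aldh1b1, Ccn2, Cd36, Cdkn1a, Col1a1, Col5a3, Cyp4a12a, Cyp8b1, Ddit4, Dusp1, Elovl6, Foxo3, Glul, Hsd17b6, Pecam1, Postn, Slc1a2, Slc39a4, Sparc, Spink1, Tef, Trem2 and Wee1 fall outside this rule and were chosen after their values were seen. So were Acta2, Tagln, Des, Ccr2, Lyz2, Cd68, Afp, Igf2, H19 and Gpc3, which are given only as not passing in their lists. Alternatives were 2-group fits, the run as a block, mouse 82 alone, mice 83 to 91, no arrays 89 and 91, no dim genes, other normalizations, trend and robust variance, array weights, stricter thresholds and leaving out each mouse. The block without arrays 89 and 91 was added after the data were seen.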

Additional observations from a re-analysis of the deposited data

Results flagged for a closer look

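These values were picked out because 1 mouse lay far from the rest of its group, by Dixon's test on groups of 9 or 10 mice. In all 28 values stood out among 292 groups tested, and chance picks out about 1 in 20 groups. The genes were picked after their values were seen, and the clock genes among them vary together. The count is therefore no evidence of an excess over chance.

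Nintedanib mouse 82 accounted for 12 of the 18 values in nintedanib mice. Its clock and clock output genes were Dbp at 6.19 (8.79 to 9.26 in the other 9 mice), Usp2 at 5.21 (7.92 to 8.63), Tef at 5.69 (6.7 to 7.36), Per3 at 2.73 (3.79 to 4.4), Wee1 at 4.19 (5.93 to 6.57), Noct at 7.16 (8.26 to 8.94) and Por at 8.0 (8.79 to 9.4), all low, and Arntl at 6.01 (2.86 to 3.71), high. In the same mouse Slc30a10 was high at 6.80 (4.68 to 5.69), Foxo1 was low at 5.83 (6.29 to 6.81), Cd163 was high at 5.58 (4.65 to 5.02) and Cdkn1a was high at 6.95 (3.99 to 5.44).

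Nintedanib mouse 89, on an array that stood apart, was low for Postn at 5.91 (6.44 to 7.03) and Vim at 6.80 (7.34 to 7.92). Nintedanib mouse 91, on the other such array, was low for Marco at 4.0 (4.82 to 5.65) and high for Golm1 at 6.45 (5.52 to 5.97). Nintedanib mouse 88 was high for both macrophage genes Mmp12 at 6.28 (3.92 to 5.01) and Lgals3 at 8.27 (7.21 to 7.71).

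Among vehicle mice, mouse 92 was low for Slc39a4 at 6.90, Serpina12 at 4.89 and Cyp2c37 at 8.37, and high for Abcd2 at 6.81, Aldh1b1 at 9.07 and Ccnd1 at 8.54. Vehicle mouse 79 was low for Cd36 at 6.67 and Cdkn2c at 5.33, mouse 80 was high for Laptm5 at 6.66, and mouse 78 was high for S100a9 at 7.48.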

How the results depend on the processing

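Against controls 784 genes were called. With the run as a block the count was 244, and 358 without arrays 89 and 91 as well. Mouse 82 alone against the controls gave 93, an adjusted p threshold of 0.01 gave 352 and a log2 difference of at least 1 gave 210. The stricter thresholds give fewer genes by construction. Mouse 82 alone differs from the whole group both in the number of mice and in clock state, and these cannot be told apart. For the block the cause was not tested. Leaving out 1 mouse at a time gave 379 (control 4, and also control 50) to 852 (nintedanib mouse 82). The 2-group fit, mice 83 to 91, no arrays 89 and 91, no dim genes, median centring, repeated quantile normalization, trend and robust variance, and array weights gave between 607 and 956. For nintedanib against vehicle 92 genes became 6 with the block, and for vehicle against control 338 became 390.

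Of 128 named genes called, 67 kept the call with the block, 44 in mouse 82 alone and all but 3 without arrays 89 and 91. Named genes that lost the call without any 1 of the 3 controls were Dbp, Clock, Per3, Ciart, Tef, Ccn2, Trem2, S100a9, H2-Aa, Skap1, Tox, Lag3, Cyp8b1, Insig2, Ppara, and those that lost it without 1 or 2 of them were Alas1, Aldh1b1, Arntl, Blnk, Ccl5, Ccnd1, Ccnf, Cd163, Cd36, Cenpa, Eda2r, Fgf1, Foxo3, H2-Ab1, H2-Eb1, Hsd17b6, Hspa5, Hyou1, Ido1, Il1b, Irgm1, Klrd1, Laptm5, Lyve1, Manf, Mgp, Pck1, Phlda3, Pou2af1, Rspo3, Sox9, Spp1, Syvn1, Usp18, Wee1. Without 1 nintedanib mouse at least 118 kept it.

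Differences changed sign for a few genes, and the cause was not tested. With the block these were Per2 (-0.79), Ciart (-0.034), Fgfr1 (-0.11), Fgfr2 (-0.070), Fgfr3 (-0.10) and Insig2 (0.011). With the block and no arrays 89 and 91 they were Per2 (-0.86), Per3 (-0.042), Ciart (-0.10), Fgfr1 (-0.14), Fgfr2 (-0.12) and Fgfr3 (-0.14). In mouse 82 alone they were Per2 (-0.56), Per3 (-0.065), Il1b (0.013), Flt4 (-0.057), Fgfr1 (-0.14), Fgfr2 (-0.0060) and Fgfr3 (-0.056), and without arrays 89 and 91 Fgfr1 (-0.0030). Leaving out 1 mouse gave -0.063 to 0.094 for Kdr, -0.021 to 0.20 for Flt4, -0.0057 to 0.27 for Fgfr2 and -0.012 to 0.24 for Fgfr3.

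No paired analysis was possible because treated and control mice share no title numbers. The 3 controls, the missing batch labels and the overlap of treatment with run limit these results. Differences near background, such as those of Skap1, Ido1, Col1a1, Fgfr1 and Flt1, are compressed by the array method.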

Other observations

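Further lists are given beside the share of all genes called in this comparison, 5.85%. Of 18 bile duct and progenitor genes 3 rose and 1 fell in nintedanib-treated liver against healthy liver: besides Cd24a and Prom1 the matricellular protein osteopontin (Spp1) rose by 0.89 ± 0.21 on the log2 scale (adjusted p = 0.161 with the run as a block), and the duct transcription factor Sox9 fell by 0.53 ± 0.13 (adjusted p = 0.339 with the block). Of 17 genes of PPAR-α and fatty acid oxidation 3 rose, among them Ppara itself, the nuclear receptor of fasting, by 0.55 ± 0.16, against 0.19 ± 0.17 (adjusted p = 0.775) with the block. Of 21 TGF-β and BMP pathway genes 1 rose, the receptor Tgfbr2, by 0.60 ± 0.12 (adjusted p = 0.0939 with the block), and 1 fell, Id3. Of 18 type I interferon response genes 1 rose, Usp18, which removes the ubiquitin-like ISG15, by 0.60 ± 0.18 (adjusted p = 0.492 with the block). Of 35 chemokine and cytokine genes 1 rose and 1 fell, Ccl5 and Il1b, and of 19 checkpoint genes 1 rose and 2 fell.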
